A study of Homo sapiens with 6 samples.

Results

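Human chromosome 17 is a small chromosome dense in genes, and it was followed here through the Hi-C contact maps of LNCaP cells, a line of prostate cancer cells. Its 40 kb bins on hg19 were taken, except those touching 3 windows at 38.5 to 40 Mb, 46.5 to 46.9 Mb and 67 to 71.5 Mb, which left 1868 bins of the 77403 bins of all chromosomes. LNCaP cells had received 20 nM of either a non-targeting siRNA pool, called control siRNA here, or a pool against CTCF, called CTCF siRNA, and were collected 144 h after the first transfection, with another one midway. DNA was cut with BglII, and the 2 control and 4 CTCF siRNA libraries, numbered Rep 1, 2, 1.1 and 2.1 with the relation of the latter pair to the first not given, were deposited as 1 pooled map and 1 list of topologically associating domains (TADs) per condition. With 1 map per condition there was no replicate, so no p-value is given, and every interval describes counting error or how positions varied.

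Chromosomes fold into TADs, stretches whose loci touch each other more often than they touch their neighbours. CTCF binds DNA at a motif that has an orientation. There it halts the extrusion of chromatin loops by the ring-shaped cohesin complex, so many TAD boundaries carry CTCF. Active gene promoters also gather at boundaries, and gene-dense chromosomes tend to lie in the interior of the nucleus.

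Contacts were listed for 1434 of the 1868 bins. No contact was listed on any chromosome at a position below 9400001 or at 121 later positions, the longest run being 11200001 to 14320000, and this emptied 356 of the bins, while 78 more were empty in chromosome 17 itself. Usable bins numbered 1383, or 74.0%. TAD edges were listed in the empty stretches too, and of 220 protein-coding genes lying below the first listed position, all without contact values, 207 lay in a control TAD and 211 in a CTCF siRNA TAD. A usable bin held a median of 343 contacts within the chromosome in control siRNA and 1803 in CTCF siRNA, so the control map set the precision. Of all contacts of chromosome 17, 36.3% stayed within it in the control map (36.2 to 36.4%, Wilson 95%) and 55.4% did after CTCF siRNA (55.4 to 55.5%). The maps also differed by base composition. The 139 bins richest in GC held 1.38 times the contacts of the 139 poorest in control siRNA and 3.02 times in CTCF siRNA, and the part of this in the results was not tested except where a value by GC group is given.

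The number of TADs hardly differed between the maps. There were 89 TADs in control siRNA and 87 in CTCF siRNA, a TAD being counted where at least 50% of it lay in the bins studied. Their median size was 640 kb in both maps, with a 95% interval of 520 to 720 kb in control siRNA and 520 to 760 kb in CTCF siRNA. Over the other autosomes TADs went from 2667 to 2215 and the median from 720 kb (720 to 760 kb) to 840 kb (800 to 840 kb). Chromosome 16 likewise hardly differed, with 85 and 83 TADs and a median of 720 kb in both maps. On chromosome 19, the only autosome with more genes per Mb, TADs went from 56 to 68 and their median from 720 kb (640 to 960 kb) to 600 kb (480 to 720 kb). The size range on chromosome 17 was wider in CTCF siRNA. TADs of up to 400 kb numbered 22 in control siRNA (24.7%) and 26 in CTCF siRNA (29.9%), where the other autosomes had 18.6% and 18%, chromosome 19 went from 8 to 17 and chromosome 22 from 3 to 10. The longest TAD measured 2.16 Mb and 3.72 Mb. Of the 89 control TADs, 35 had a CTCF siRNA TAD with both edges within 40 kb, or 39.3% (29.8 to 49.7%), against 20.3% over all chromosomes, 20.0% (18.5 to 21.5%) on the other autosomes and 32.1% (21.4 to 45.2%) on chromosome 19.

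**Figure D1:**
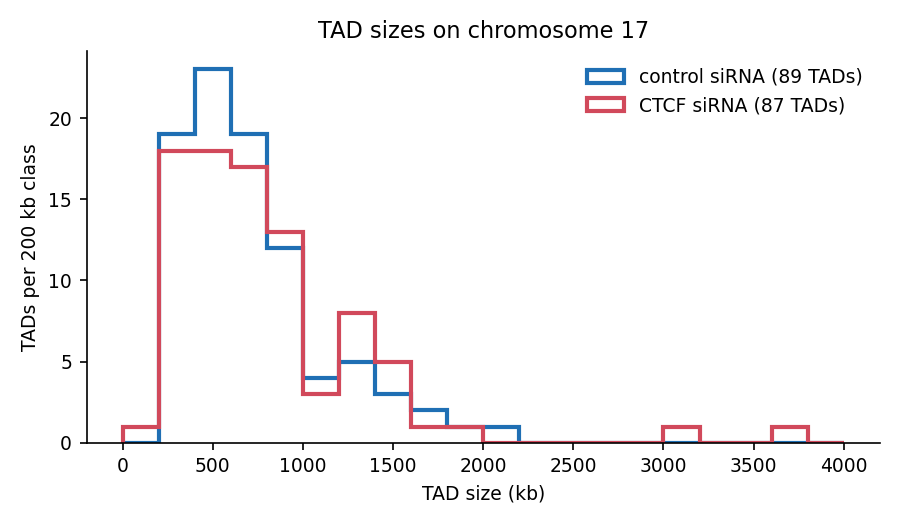
The plot counts TADs of chromosome 17 (y axis) in size classes of 200 kb (x axis, kb) in control siRNA (blue, 89 TADs) and CTCF siRNA (red, 87 TADs). Both distributions centre on a median of 640 kb, and the longest TAD is 2.16 Mb in control siRNA and 3.72 Mb in CTCF siRNA.

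Boundaries were then compared. Facing edges of neighbouring TADs at most 100 kb apart were taken as 1 boundary at their middle, and a control boundary was called lost when the CTCF siRNA list had none within 40 kb and kept otherwise. Of 120 control boundaries 46 were lost, or 38.3% (95% Wilson interval 30.1 to 47.3%), where the background over all chromosomes was 49.4%. The other autosomes lost 49.5% (47.8 to 51.3%), an interval that did not overlap this one. At positions of chromosome 17 with listed contacts, however, 41.1% were lost (31.7 to 51.1%), an interval that overlaps that of the other autosomes. The share of the other autosomes was not limited to positions with listed contacts, so these sets are unlike. Autosomes also varied among themselves from 28.6% on chromosome 19 to 61.1% on chromosome 4. Chromosome 16 lost 38.5%, nearly the same share as chromosome 17, and chromosome 22 lost 45.7% (32.2 to 59.8%). With all bins of chromosome 17 the share was 38.8%. It was 32.5% with boundaries shared within 80 or 100 kb and 41.5% (32.1 to 51.6%) with facing edges joined within 400 kb. The other autosomes were not set beside these settings. Of the 74 kept boundaries, 40 lay at the same position in both lists, 13 lay 20 kb apart and 21 lay 40 kb apart.

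**Figure D2:**
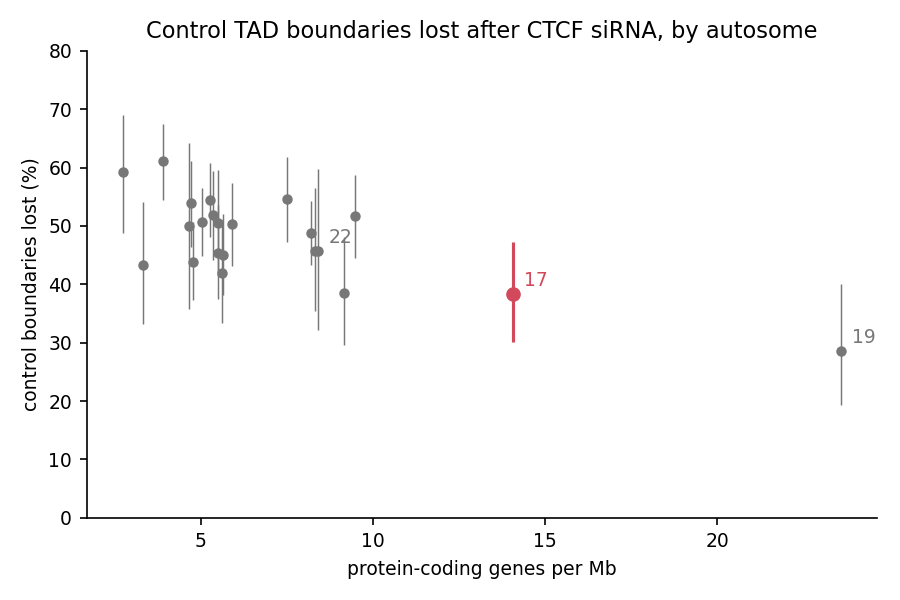
Each point is an autosome, with its protein-coding genes per Mb on the x axis and the share of control boundaries lost (%) on the y axis, and bars are 95% Wilson intervals. Chromosome 17 (red) lies at 14.1 genes per Mb and 38.3% lost, between chromosome 19 at 28.6% and most of the others.

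New boundaries were counted at the same 40 kb. In CTCF siRNA 27 of 101 boundaries were gained, or 26.7% (19.1 to 36.1%), against a background of 39.3% over all chromosomes, and the other autosomes ranged from 29.2% to 45.3%. The share depended on the definition, at 60.4% when boundaries had to touch and 38.2% with facing edges joined within 400 kb, and the other autosomes were not set beside it at these settings. On the short arm 10 of 33 control boundaries were lost (30.3%, 17.4 to 47.3%) and on the long arm 36 of 86 (41.9%, 32.0 to 52.4%), intervals that overlapped widely. Where no contacts were listed 7 of 25 were lost (28.0%, 14.3 to 47.6%), and where they were listed 39 of 95 (41.1%, 31.7 to 51.1%). Of CTCF siRNA boundaries, 24 of 80 were gained where contacts were listed (30%, 21.1 to 40.8%) and 3 of 21 where none were (14.3%, 4.98 to 34.6%). The former interval overlaps that of the other autosomes, 39.5% (37.7 to 41.4%), which were not split in this way.

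Merging of TADs was counted next. Control TADs counted as merged when at least 2 of them fitted into 1 CTCF siRNA TAD, with 40 kb allowed at each edge. This held for 18 of 89 control TADs, or 20.2% (13.2 to 29.7%), in 9 larger TADs, with a background of 31.3% over all chromosomes. The reverse, subdivision, gave 12 of 87 CTCF siRNA TADs in 6 control TADs, or 13.8% (8.07 to 22.6%), close to its background of 13.4%.

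The CTCF siRNA TAD that held most control TADs ran from 54900001 to 56740000 and held 3 of them, 320 to 880 kb long. It overlaps 27 protein-coding genes, among them MSI2, an RNA-binding protein of stem cells, the splicing factor SRSF1, the peroxidases MPO, LPO and EPX, and RNF43, a ubiquitin ligase that removes Wnt receptors. Contacts between neighbouring control TADs there were 1.22 times those expected for their distance in control siRNA (95% Poisson interval 1.15 to 1.30, 1046 contacts) and 1.59 times in CTCF siRNA (1.55 to 1.62, 8332 contacts). This TAD was chosen from calls made on the same libraries, so the difference describes the call and is no test of it. The next TAD by the naming rule, tied with others at 2 control TADs and taken as the first along the chromosome, ran from 8260001 to 9740000 around MYH10, a non-muscle myosin, and NTN1, the axon guidance cue netrin. The control TAD split in CTCF siRNA, likewise tied, ran from 4300001 to 5340000 and overlaps 39 genes, with the arrestin ARRB2 and the actin-binding PFN1 among them. Neither had contacts between the TADs it held to set beside the calls.

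The calls were set beside the contacts themselves through an insulation value. Since the calls came from the same libraries, its change at lost, kept and gained boundaries describes the calls and is no independent test of them. Edges were also called where the deposited maps list no contacts, so the calls were not made on those maps as they stand. Contacts across a bin, observed over expected, were divided by the same quantity within the 400 kb to either side and put on a log2 scale, so that a low value marks few contacts across. At 38 of the 46 lost boundaries it could be measured, with medians of -0.62 (control siRNA) and -0.22 (CTCF siRNA). Changes had a median of 0.40 (0.20 to 0.58, a 95% interval from order statistics), and 34 of the 38 were higher in CTCF siRNA. A change of 0.5 or more upwards was seen at 14, or 36.8%, against 12.8% of all autosomal bins. In the interiors of chromosome 17 TADs, at least 5 bins from any boundary, the median change over 517 bins was -0.01 (-0.04 to 0.02).

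Kept boundaries were deeper and changed less in the median, with intervals that overlapped those of lost boundaries for both. In control siRNA the intervals were -0.91 to -0.74 for kept and -0.86 to -0.47 for lost boundaries. Over 51 of 74 kept boundaries the median value was -0.84 in control siRNA and -0.73 in CTCF siRNA, with a median change of 0.12 (0.02 to 0.21). With flanks of 200 kb, balanced counts or neighbouring bins left out it was 0.06 to 0.08 with intervals that include 0. Individually they went both ways, 20 being higher and 12 lower by more than 2 counting SD, where 31.1% and 24.2% of autosomal bins passed the same limits. Over the other autosomes kept boundaries changed by 0.35 (0.32 to 0.39) and lost boundaries by 0.59 (0.56 to 0.62). On chromosome 19 the median change was 0.17 (0.01 to 0.23) at kept boundaries and 0.44 (0.06 to 0.69) at lost ones. On chromosome 21 lost boundaries changed by 0.35. Over 23 of 27 gained boundaries the median went from -0.35 to -0.51, and the median of the changes was -0.06 (-0.37 to 0.15), an interval that includes 0. Of the 23, 3 were lower by 0.5 or more, or 13%, where 3.82% of autosomal bins and 5.71% of those of chromosome 17 were, and 2 were higher by as much. Beyond 2 counting SD 9 were lower and 4 higher, to be read against the 24.2% and 31.1% above.

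**Figure D3:**
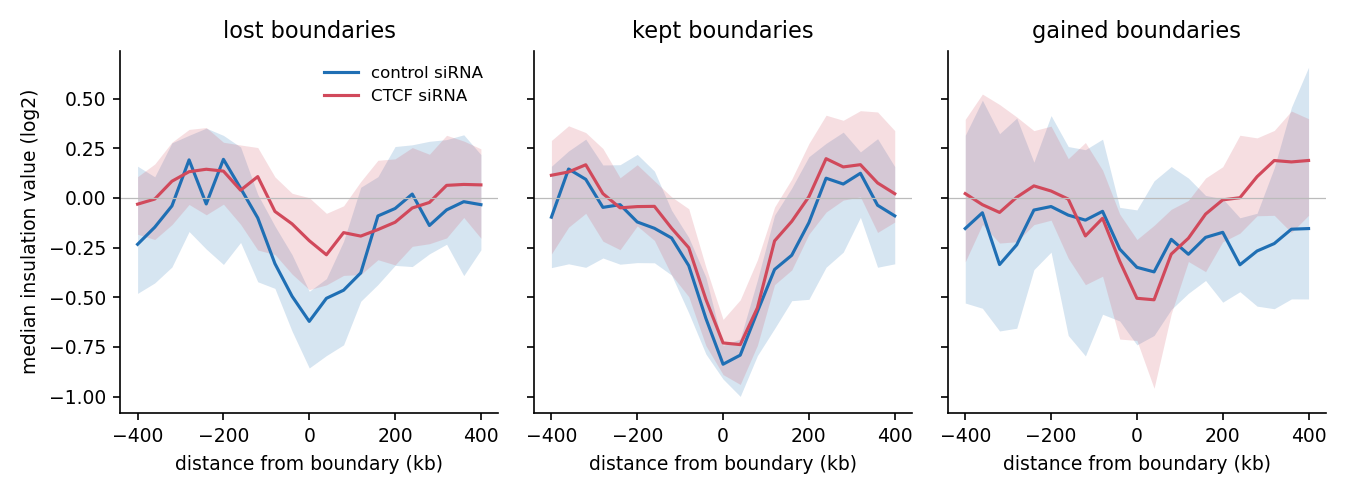
Median insulation value (log2, y axis) by distance from lost, kept and gained boundaries of chromosome 17 (x axis, kb) in control siRNA (blue) and CTCF siRNA (red), with 95% intervals over boundaries shaded. At lost boundaries the dip is -0.62 in control siRNA and -0.22 in CTCF siRNA, while at kept boundaries the medians are -0.84 and -0.73.

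Of the 38 lost boundaries measured, 26 were higher and 0 lower by more than 2 counting SD, where 31.1% and 24.2% of autosomal bins were. Those with the largest rise are given as a description, since they were chosen for it. The largest was in the bin 64680001 to 64720000, within PRKCA, the gene of protein kinase C alpha. Its value was -0.93 ± 0.10 (counting SD) in control siRNA, from 257 contacts across, and 0.19 ± 0.03 in CTCF siRNA, from 3332, a difference of 1.12 ± 0.10. The bin 76960001 to 77000000, over the nucleotidase gene CANT1 and LGALS3BP, a secreted galectin-binding protein, went from -1.45 to -0.57. The bin 29680001 to 29720000 holds the 3′ end of NF1, whose product switches off RAS, and part of RAB11FIP4, a factor of endosome recycling, and its value went from -0.86 ± 0.11 to -0.06 ± 0.04. The bin 56560001 to 56600000, over HSF5, the lipid phosphatase gene MTMR4 and SEPTIN4, went from -0.97 to -0.20 and lies in the merged TAD with RNF43, a difference of 0.77 that was 0.45 with flanks of 800 kb. The fifth, 47440001 to 47480000, holds no protein-coding gene, ZNF652 being nearest, and went from -0.56 to 0.21.

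Sequence at 3 of these 5 boundaries holds the core motif of CTCF, searched on both strands over 13 letters in the boundary bin and the bins beside it. A pair of them that lie between protein-coding genes is shown because they mark lost boundaries with the motif present, read from GRCh37 on the strand of the match, with the motif in capitals:
NF1 and RAB11FIP4, lost, chr17:29716555-29716607, plus strand: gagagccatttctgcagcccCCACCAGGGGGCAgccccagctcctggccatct
ZNF652, lost, chr17:47472539-47472591, minus strand: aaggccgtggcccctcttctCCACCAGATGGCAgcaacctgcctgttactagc

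The deepest kept boundaries differed among themselves. The bin 61880001 to 61920000, crowded with DDX42, FTSJ3, the proteasome gene PSMC5 and SMARCD2 of the BAF remodelling complex, had -2.05 ± 0.14 in control siRNA and -2.03 ± 0.05 in CTCF siRNA, a difference of 0.02 within counting error that was 0.42 with flanks of 200 kb, and 11 gene starts lie within 100 kb of it. The bin 34120001 to 34160000, over the metalloproteinase gene MMP28 and TAF15, an RNA-binding protein, was weaker in CTCF siRNA, at -1.83 ± 0.17 against -1.08 ± 0.06, and its difference of 0.75 was 0.50 with the values as deposited. The bin 41360001 to 41400000, over the autophagy receptor gene NBR1 and TMEM106A, was deeper, at -1.73 ± 0.12 against -2.65 ± 0.06. At 19080001 to 19120000, over EPN2, an adaptor of endocytosis, the values were -1.82 ± 0.20 and -2.23 ± 0.09, a change of -0.41, less than 2 counting SD, and of -0.18 with the values as deposited. Its surroundings hold the motif at 2 places on opposite strands, and the 53 bases around them are the same, so reads there may not be told apart:
EPN2, kept, chr17:19078909-19078961, minus strand: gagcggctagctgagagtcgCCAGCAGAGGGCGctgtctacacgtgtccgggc
EPN2, kept, chr17:19105926-19105978, plus strand: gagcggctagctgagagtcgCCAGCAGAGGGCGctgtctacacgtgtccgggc

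Some kept boundaries were also weaker in CTCF siRNA, by amounts that moved with the processing. In the bin 64160001 to 64200000, within the centrosomal gene CEP112, the value went from -1.45 ± 0.12 to -0.35 ± 0.05, a difference of 1.09 that was 0.48 with flanks of 800 kb and 1.47 with 200 kb. In 36240001 to 36280000, nearest to TBC1D3K of a family of near-identical copies, it went from -0.80 to -0.02, a difference of 0.78 that was 0.21 after balancing of the counts. Among gained boundaries the bin of INTS2, a subunit of the Integrator complex, at 59960001 to 60000000 went from 0.16 ± 0.10 to -0.81 ± 0.07. The bin 17680001 to 17720000, over RAI1 and SREBF1, a master regulator of lipid synthesis, went from 0.15 ± 0.07 to -0.72 ± 0.03, a change of -0.86 that was -0.47 with flanks of 800 kb and -1.35 with 200 kb. The bin of the RNA helicase DDX5, with CEP95 and POLG2, at 62480001 to 62520000 went from -0.74 to -1.60, a change of -0.86, or -0.47 with flanks of 800 kb. A TAD ended at 62420000 in control siRNA and at 62500000 in CTCF siRNA here. It was thus called gained although a control boundary lay nearby, beyond the 40 kb allowed.

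Over all boundaries the order of lost and kept ones by motif depended on the setting. A match lay within the 120 kb around 23 of 46 lost boundaries (50%, 36.1 to 63.9%) and 37 of 74 kept ones (50%, 38.9 to 61.1%), with 11 of 27 gained (40.7%, 24.5 to 59.3%). In the boundary bin alone it was 34.8% of lost and 21.6% of kept boundaries, against 13.8% of all bins of chromosome 17, and with a form of 15 letters over 120 kb 26.1% and 32.4%, against 21.3%. Of all 1868 regions of 120 kb of chromosome 17, 34.7% held the motif of 13 letters, as did 22.7% over all autosomes. A match is a string of letters, and CTCF binding was not analysed here.

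Longer-range contacts were examined for what spans these boundaries. Of contacts between different bins, 29.1% (29.0 to 29.3%) joined bins 520 kb or more apart in control siRNA and 29.9% (29.8 to 30%) in CTCF siRNA. The difference was 0.77 percentage points upwards, while over the other autosomes the share went from 44.1% to 41.3%. Chromosome 20 had a similar difference of 0.78 points upwards, from 34.1% to 34.9%. Chromosome 22 had 29.4% (29.1 to 29.7%) in control siRNA, an interval that overlaps that of chromosome 17, and 32.2% in CTCF siRNA. Chromosome 19 had 33.2% and 33.0%. With all bins of chromosome 17 the shares were 31.4% and 32.2%, above chromosome 22 in control siRNA and about equal to it in CTCF siRNA.

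Contacts around 500 kb were then taken relative to those at 80 to 200 kb, which removes depth. Bin pairs 480 and 520 kb apart held 0.212 of the contacts per pair at 80 to 200 kb in control siRNA (6405 contacts over 2501 pairs) and 0.250 in CTCF siRNA (42160 contacts). The ratio of the conditions was 1.18 (95% interval 1.15 to 1.21), where the other autosomes ranged from 1.05 to 1.18. On chromosome 22 it was also 1.18 (1.14 to 1.22), and on chromosome 19 it was 1.09 (1.06 to 1.12). Averaged over 5 groups of bin pairs by GC content the ratio of chromosome 17 was 1.17, so it was nearly as large when averaged this way.

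Along the whole decay the relative excess in CTCF siRNA was a hump. The ratio was 0.976 (0.963 to 0.990) at 80 kb, 1.31 (1.28 to 1.35) at a mean distance of 1219 kb, 0.955 (0.914 to 0.998) at 3096 kb and 0.774 (0.742 to 0.808) at 17419 kb. The maps also differed in the share of contacts that stayed within chromosome 17, 36.3% in control siRNA and 55.4% in CTCF siRNA. The part of this in the ratios and slopes was not tested. On log scales the slope from 80 kb to 2 Mb was -1.36 ± 0.08 (SE over 10 distance classes) in control siRNA and -1.27 ± 0.08 in CTCF siRNA. From 2 to 20 Mb it was -0.85 ± 0.05 and -0.98 ± 0.06 over 8 classes, but on the short arm alone -0.41 (-0.77 to -0.04) and -0.50 (-0.74 to -0.25). The errors of the whole-chromosome slopes hold curvature that both curves share, and fitted to the ratio of the curves the differences were 0.09 ± 0.01 and -0.13 ± 0.02. Below 2 Mb the slopes of chromosome 22 were -1.30 and -1.17 and those of chromosome 19 -1.24 and -1.18.

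**Figure D4:**
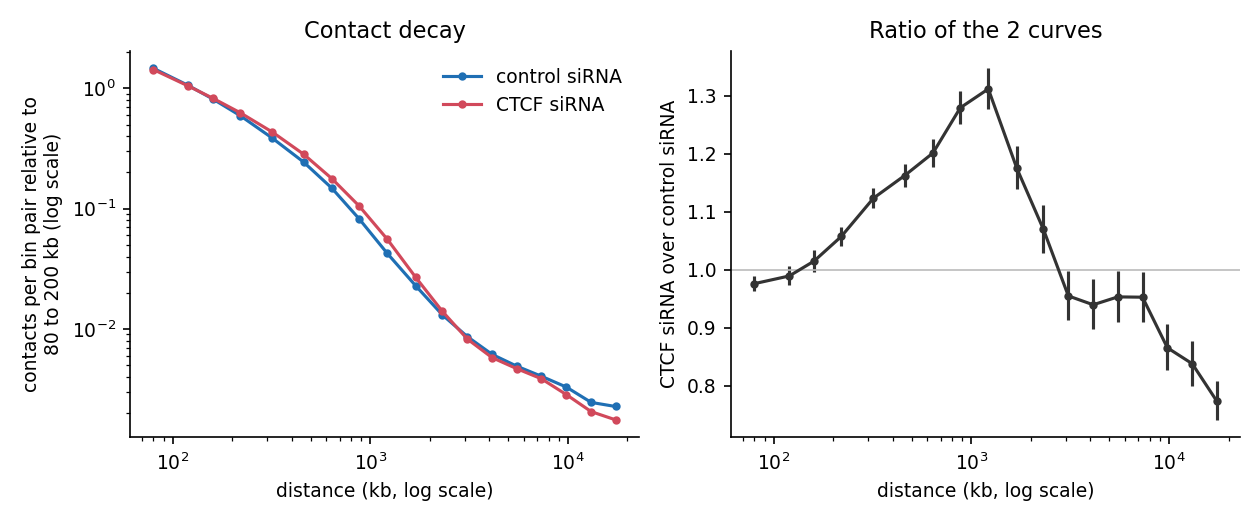
Left, contacts per bin pair of chromosome 17 relative to those at 80 to 200 kb (y axis, log scale) by distance (x axis, kb, log scale) in control siRNA (blue) and CTCF siRNA (red). Right, the ratio of the curves with 95% counting intervals, which reaches 1.31 near 1219 kb and falls to 0.774 at 17419 kb.

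Genes at boundaries were counted last, as starts of protein-coding genes within 100 kb. Lost boundaries had a median of 3 (95% interval 3 to 4) and kept boundaries of 3 (2 to 4), with means of 3.93 ± 0.39 (SE) and 3.76 ± 0.36, and both intervals overlapped. The order of the means was not settled, with kept above lost boundaries for starts within 40 kb (1.99 and 1.63), for all annotated genes (10.2 and 9.04) and with boundaries shared within 80 kb (3.88 and 3.72). At least 1 start lay near 44 of 46 lost (95.7%, 85.5 to 98.8%) and 67 of 74 kept boundaries (90.5%, 81.7 to 95.3%), against 74.6% of all bins of chromosome 17. Median GC content was 46.3% at lost and 46.1% at kept boundaries. Gained boundaries had a median of 5 starts (2 to 7) and a GC content of 49.7%. Over the other autosomes kept boundaries had more starts than lost ones, with means of 2.56 ± 0.06 and 1.80 ± 0.05.

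**Figure D5:**
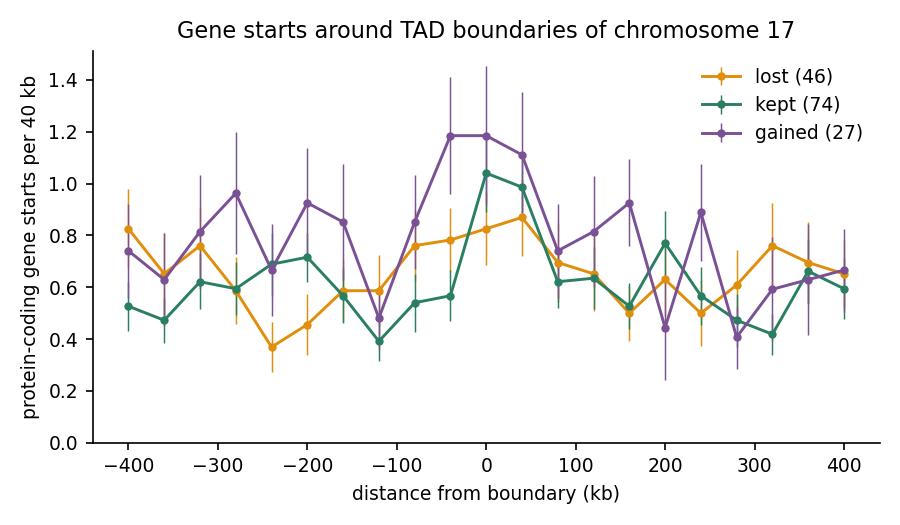
Protein-coding gene starts per 40 kb (y axis, mean ± SE over boundaries) by distance from lost (orange, 46), kept (green, 74) and gained (purple, 27) boundaries of chromosome 17 (x axis, kb). At the boundary itself the means are 0.83 for lost, 1.04 for kept and 1.19 for gained boundaries, with errors that overlap.

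Shares lost by gene density around a boundary also overlapped in their intervals. With control boundaries ranked by starts within 500 kb, 15 of the 40 with fewest (37.5%, 24.2 to 53.0%), 15 of the middle 40 (37.5%, 24.2 to 53.0%) and 16 of the 40 with most (40%, 26.3 to 55.4%) were lost, with median GC contents of 42.8%, 46.5% and 48.3%. Using the same limits, the other autosomes lost 51.6% (49.6 to 53.6%), 43.4% (39.2 to 47.7%) and 44.2% (38.9 to 49.7%). On chromosome 17 the order of the groups depended on the setting. From fewest to most, 37.5%, 30% and 47.5% were lost with starts within 1 Mb. With boundaries shared within 80 kb it was 35%, 35% and 27.5%.

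Listed genes of chromosome 17 were placed on the maps. All 71 lie in the bins studied, and 44 have an insulation value in the bin of their start. A lost boundary was nearest to 14 of the 71, the 7 CD300 genes among them. The share was 382 of 1037 for protein-coding genes of the bins studied (36.8%). For STAT3, STAT5A and STAT5B among the 14 that boundary lies in a window left out, so it was not counted above. It adjoins their TAD, which ran from 39860001 to 41380000 in control siRNA and from 39820001 to 41380000 in CTCF siRNA. Both edges of this TAD were thus within 40 kb, although the boundary, placed at the middle of facing edges, was called lost. Genes that share a bin share its value, and nearby bins share most of their flanks, so the counts are of genes and not of independent positions. The bins of BRCA1, BRIP1 and SREBF1 adjoin the boundary bins named above at NBR1, at INTS2 and at RAI1. Of the 44, 21 were higher and 12 lower in CTCF siRNA by more than 2 counting SD, against 421 and 310 of the 1331 bins of chromosome 17 with a value.

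Of 8 tumour suppressor genes 6 had a value, none was higher and 4 were lower. BRCA1, of DNA repair, went from -1.04 ± 0.10 to -1.57 ± 0.04, BRIP1, its partner helicase, from -0.00296 ± 0.10 to -0.81 ± 0.06, and AXIN2, a brake on Wnt signalling, from 0.75 ± 0.07 to 0.33 ± 0.03. The start of NF1 went from 0.90 ± 0.09 to 0.62 ± 0.04, and its TAD was 0.48 Mb in control siRNA and 1.16 Mb in CTCF siRNA. RNF43 had 0.27 and 0.25 in TADs of 0.32 and 1.84 Mb.

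Of 7 oncogenes and kinases 6 had a value, with 1 higher and 1 lower. CDK12, a kinase of transcription elongation, went from -0.43 ± 0.08 to -1.15 ± 0.04 and the phosphatase gene PPM1D from -0.62 ± 0.12 to -0.19 ± 0.06. ERBB2, a receptor kinase, had 0.56 ± 0.07 and 0.40 ± 0.03, a change of less than 2 counting SD. Of 7 genes known in prostate cells 3 of 6 were higher and 3 lower: SREBF1 had 0.22 and -0.48, FASN, the fatty acid synthase, -0.30 and -0.72, and SPOP, a ubiquitin ligase adaptor, 0.51 and 0.20, while NCOR1, a corepressor, had -0.47 and -0.18 and the neighbours STAT5A and STAT5B, transcription factors of cytokine signalling, differed by 0.28 and 0.23 upwards.

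Gene clusters kept their TADs to differing degrees. The 10 olfactory receptor genes lay in a TAD of 0.92 Mb in control siRNA and 0.96 Mb in CTCF siRNA, but neither they nor the 6 myosin heavy chain genes had contact values. Of 14 chemokine genes 9 had a value, of which 6 were higher and none lower. Among the 6, CCL1 and CCL13 share a bin, as do CCL14 and CCL16. CCL5, which draws T cells, went from -1.56 ± 0.17 to -0.57 ± 0.05. Its nearest boundary, 87.8 kb away, is the kept one at MMP28 and TAF15 named above, so the bins share most of their flanks. All 5 genes of the growth hormone cluster, in 2 bins beside the kept boundary at SMARCD2, were higher: GH1 went from -1.45 ± 0.12 to -0.92 ± 0.04. Of the 6 CD300 genes that lie together, receptors of myeloid cells, 5 were higher and CD300A was lower, at 0.18 ± 0.06 and -0.11 ± 0.02, with a CTCF siRNA TAD edge between it and its neighbours. CD300LG, which starts far from them in the bin 41920001 to 41960000, went from -1.57 ± 0.12 to -0.71 ± 0.04. Of 5 schlafen genes 3 were lower, SLFN11, a factor of replication stress, at 0.98 ± 0.08 and 0.72 ± 0.04, and WNT3 and WNT9B, which encode Wnt ligands, had no value.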

How the data were processed

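The authors made Hi-C libraries from LNCaP cells with BglII, mapped reads to hg19, pooled the libraries of each condition into 40 kb bins, and called TADs with domaincaller, which finds switches of upstream to downstream contact bias; the submitters' processing notes name FastQC 0.11.2, Bowtie 1.1.0, SAMtools 1.2 and Picard 1.121. The deposited contact values were whole counts multiplied by factors per bin position between 9400001 and 48120000, the same on every chromosome. Dividing by factors estimated from the same values gave whole counts (tolerance 0.0101 plus 0.05% of the value), and these counts were used. This held for 99.9% of the scaled values of chromosome 17 with a factor large enough to check. These numbered 37358 in control siRNA and 116453 in CTCF siRNA, and random values would have passed at 2.63% and 2.84%.

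A bin was usable at 10% or more of the chromosome's median count in both maps. Expected contacts were means per distance over usable bins, and an insulation value needed 50% of bin pairs usable. Counting SDs follow from Poisson errors. Genes are those of GENCODE release 44 on GRCh37, whose chromosome 17 of 81195210 bases fits the bins of hg19. Boundaries named in the text needed 50 contacts expected across in control siRNA: the 5 lost with the largest rise, the 4 kept with the lowest control value, the 3 kept with the largest rise and the 3 gained with the largest fall, plus 3 TADs by TADs held and fixed gene lists. The bins, lists and tests were chosen with earlier results of these data known. Methods were tested on simulated maps. Python 3.11.15 with numpy 2.4.6, pandas 2.3.3, scipy 1.17.1 and matplotlib 3.10.9 was used. Alternatives covered tolerances, flanks, forms of the values, gene windows and the motif. 1 gene of the fixed lists is not reported here.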

Additional observations from a re-analysis of the deposited data

How the results depend on the processing

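No paired analysis was possible because each condition was deposited as 1 pooled map, and leaving out a library could not be run for the same reason. Of 93 alternatives to results over many positions, 67 left the value within its interval or count within 1.5 times. Of 59 more at single named boundaries, 13 moved the change by over 2 counting SD and none turned its direction. Beyond 48120000 the deposited values were the counts themselves, so there the alternative with the values as deposited could hardly differ. The 59 count the alternatives at 34120001 once for each of the lists of kept boundaries that name it. When boundaries had to touch, 66.7% of control boundaries were lost and 60.4% of CTCF siRNA boundaries gained, and joining facing edges within 400 kb gave 38.2% gained. Shared within 80 or 100 kb, 32.5% were lost and 20.8% gained. The change at gained boundaries was 0.0198 with flanks of 200 kb and 0.0244 with 800 kb, so it has no settled direction. At kept boundaries it was 0.08 with flanks of 200 kb, 0.07 after balancing and 0.06 without neighbouring bins, with intervals that include 0. The share of contacts at 520 kb or more was, in control and CTCF siRNA, 28.9% and 29.4% with the values as deposited, 31.4% and 32.2% over all of chromosome 17, 21.7% and 22.1% with contacts within a bin and 38.1% and 38.6% without neighbouring bins, higher in CTCF siRNA each time. The ratio at 500 kb was 1.14 with the values as deposited. On the short arm alone the slopes from 2 to 20 Mb were -0.41 and -0.50. Mean gene starts at lost and kept boundaries were 1.63 and 1.99 within 40 kb, 6.93 and 6.70 within 200 kb, and 9.04 and 10.2 for all annotated genes, so kept exceeded lost boundaries in the first and last of these. The motif lay in 34.8% of lost and 21.6% of kept boundary bins alone, and its form of 15 letters near 26.1% and 32.4%. The cause of the other changes was not tested. Measuring between facing edges, an alternative chosen after seeing the data, gave 37.5% lost and 24.8% gained. Control depth and the positions without contacts limit single boundaries.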

Other observations

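Along chromosome 17, in windows of 5 Mb, contacts 400 to 600 kb apart relative to those at 80 to 200 kb were highest in CTCF siRNA over control siRNA at 45 to 50 Mb, at 1.43 (95% counting interval 1.35 to 1.52), and lowest at 55 to 60 Mb, at 1.0 (0.948 to 1.06). At 50 to 55 Mb, the window with the lowest GC content (38.4%) and 15 gene starts, the CTCF siRNA map held 3.60 times the contacts of the control map, and at 70 to 75 Mb, with 96 gene starts and a GC content of 49.6%, it held 6.70 times. At 20 to 25 Mb, with 9 gene starts, it held 5.82 times, and at 65 to 70 Mb, with 22 gene starts and a GC content of 40%, 5.43 times.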
